A study of Mus musculus with 2 samples.

Results

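Suz12 peaks that lay at the ends of long non-coding RNA (lncRNA) genes and at no end of a protein-coding gene numbered 209 of 3373 (6.20%, 95% interval 5.41 to 7.06). The peaks come from 1 chromatin immunoprecipitation sequencing library of wild-type E14 cells, a mouse embryonic stem cell line, made with an antibody against Suz12. The cells had differentiated for 72 h in serum, exposed to all-trans-retinoic acid at 1 µM, and leukemia inhibitory factor, which keeps stem cells undifferentiated, was absent. A peak was taken when its nearest edge lay within 2.5 kb of either outer end of a gene that RefSeq on GRCm38 classes as lncRNA and more than 2.5 kb from both outer ends of every protein-coding gene. The rule used position only, and a distance from a peak to a gene always means that to the nearer outer end of the gene, also where the peak lies inside it. Each peak also carries the authors' own score, of a scale that is not stated, which ran from 150.3 to 3233 over the list and is used here to rank peaks within it. The other library of the series, from Suz12[-/-] cells at 0 h, was not analysed here, and with 1 library there was no replicate error, no test and no comparison between conditions. Intervals are exact (Clopper-Pearson) binomial intervals and cover counting error only, with peaks or genes treated as independent, although neighbours are not.

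Suz12 belongs to the core of PRC2, Polycomb Repressive Complex 2, an enzyme that methylates lysine 27 of histone H3 and is found on CpG-rich promoters of silent developmental genes in embryonic stem cells. A lncRNA gene is transcribed into a long RNA without a protein product. Many lie close to transcription factor genes, and some are the precursors from which microRNAs, short RNAs that repress messenger RNAs, are cut. The title of the series concerns silenced genes and the arrival of PRC2 at their CpG islands. A peak says where Suz12 was found, in all cells or in part of them, and not whether a gene was silent.

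The 9 promoter windows below show the CpG content at lncRNA starts inside these peaks. Each is RefSeq sequence of GRCm38.p6, from 250 bases before to 50 bases after an annotated start, 5′ to 3′ on the strand of the gene, with every CpG dinucleotide in capitals. The 9 are a selection and do not show how common CpG-rich starts are. Not shown, but also in peaks of score 3100, are Gm27197 (12 CpG), BB283400 (13), Gm31221 (10), Gm34978 (10) and 6430503K07Rik (11). By limits given further on, 36 of 80 lncRNA starts in these peaks were CpG dense. The first 7 windows are CpG-rich starts picked from peaks of high score, at genes described further on. They lie at chr7:79499776-79500075 (plus strand, Mir9-3hg, 35 CpG), chr6:30174076-30174375 (minus, Mirc35hg, 35 CpG), chr2:147183833-147184132 (plus, Nkx2-2os, 17 CpG), chr8:12385521-12385820 (plus, Sox1ot, 20 CpG), chr9:87739134-87739433 (plus, Gm36767, 29 CpG), chr5:112228899-112229198 (minus, Miat, 25 CpG) and chr9:122572251-122572550 (plus, 9530059O14Rik, 38 CpG). The last 2 are CpG-poor starts inside peaks of score 3100, at chr14:61690263-61690562 (minus, an inner start of Gm35196, 0 CpG) and chr2:146840521-146840820 (minus, Gm14114, 2 CpG).
Mir9-3hg: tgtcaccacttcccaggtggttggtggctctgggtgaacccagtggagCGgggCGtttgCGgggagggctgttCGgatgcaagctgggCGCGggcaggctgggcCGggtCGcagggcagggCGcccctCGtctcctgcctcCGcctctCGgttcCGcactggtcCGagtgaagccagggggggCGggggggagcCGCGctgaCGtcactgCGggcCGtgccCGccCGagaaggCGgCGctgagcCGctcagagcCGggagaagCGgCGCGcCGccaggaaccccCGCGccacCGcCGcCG
Mirc35hg: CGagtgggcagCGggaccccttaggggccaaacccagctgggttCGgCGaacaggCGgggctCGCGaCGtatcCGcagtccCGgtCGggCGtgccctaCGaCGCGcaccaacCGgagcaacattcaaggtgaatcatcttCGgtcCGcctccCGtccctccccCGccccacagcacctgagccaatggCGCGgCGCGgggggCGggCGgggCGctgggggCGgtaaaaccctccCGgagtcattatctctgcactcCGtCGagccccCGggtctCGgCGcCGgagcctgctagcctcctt
Nkx2-2os: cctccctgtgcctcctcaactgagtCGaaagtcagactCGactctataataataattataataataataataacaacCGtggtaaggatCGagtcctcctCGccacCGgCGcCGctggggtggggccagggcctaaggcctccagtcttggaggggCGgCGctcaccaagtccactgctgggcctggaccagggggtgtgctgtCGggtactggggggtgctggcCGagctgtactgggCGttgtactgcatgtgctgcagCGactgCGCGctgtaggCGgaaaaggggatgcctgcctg
Sox1ot: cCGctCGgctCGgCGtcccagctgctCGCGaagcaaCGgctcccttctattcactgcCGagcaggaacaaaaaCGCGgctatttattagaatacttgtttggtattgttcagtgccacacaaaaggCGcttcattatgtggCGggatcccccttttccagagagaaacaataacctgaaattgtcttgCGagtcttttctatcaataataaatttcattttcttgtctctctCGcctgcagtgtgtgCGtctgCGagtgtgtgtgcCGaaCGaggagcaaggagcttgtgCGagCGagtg
Gm36767: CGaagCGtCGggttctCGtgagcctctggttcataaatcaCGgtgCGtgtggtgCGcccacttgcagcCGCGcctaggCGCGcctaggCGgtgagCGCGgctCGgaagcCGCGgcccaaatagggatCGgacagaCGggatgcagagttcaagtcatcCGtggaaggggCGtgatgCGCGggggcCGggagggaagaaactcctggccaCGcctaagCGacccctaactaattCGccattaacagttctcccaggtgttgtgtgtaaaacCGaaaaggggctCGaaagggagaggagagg
Miat: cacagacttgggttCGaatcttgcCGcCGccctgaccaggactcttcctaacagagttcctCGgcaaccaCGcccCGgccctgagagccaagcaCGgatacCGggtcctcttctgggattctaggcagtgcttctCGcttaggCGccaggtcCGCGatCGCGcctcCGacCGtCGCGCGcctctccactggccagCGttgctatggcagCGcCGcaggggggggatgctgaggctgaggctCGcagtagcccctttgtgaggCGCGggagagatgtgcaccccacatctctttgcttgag
9530059O14Rik: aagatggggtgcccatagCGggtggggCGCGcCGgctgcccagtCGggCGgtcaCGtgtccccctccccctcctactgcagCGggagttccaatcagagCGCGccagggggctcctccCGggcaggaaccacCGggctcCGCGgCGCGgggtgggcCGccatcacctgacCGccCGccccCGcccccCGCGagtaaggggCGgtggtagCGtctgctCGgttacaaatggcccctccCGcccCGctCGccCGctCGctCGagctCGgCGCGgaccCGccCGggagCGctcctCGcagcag
Gm35196: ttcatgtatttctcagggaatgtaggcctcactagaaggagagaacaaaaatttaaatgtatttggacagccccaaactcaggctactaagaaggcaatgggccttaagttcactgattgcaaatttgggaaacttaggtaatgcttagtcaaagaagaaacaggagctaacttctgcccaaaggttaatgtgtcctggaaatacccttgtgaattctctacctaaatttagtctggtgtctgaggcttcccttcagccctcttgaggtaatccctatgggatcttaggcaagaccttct
Gm14114: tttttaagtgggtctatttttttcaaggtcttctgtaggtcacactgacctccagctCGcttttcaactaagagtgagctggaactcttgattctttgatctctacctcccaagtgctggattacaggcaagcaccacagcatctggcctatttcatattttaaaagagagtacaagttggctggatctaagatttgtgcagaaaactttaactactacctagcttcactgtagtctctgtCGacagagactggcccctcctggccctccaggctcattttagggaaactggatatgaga

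Mature microRNAs cut from lncRNA genes at these peaks carry the other sequences of interest. They are RefSeq sequences on GRCm38.p6 with the seed, bases 2 to 8, in capitals. The first pair comes from the miR-9 gene of Mir9-3hg, and the same sequences are encoded by Mir9-2 inside the lncRNA gene C130071C03Rik. The next 3 are encoded by 1 cluster inside Mirc35hg, miR-193b-3p and miR-365-3p by Gm32817, and the last pair, which shares 1 seed, by Dleu2.
mmu-miR-9-5p: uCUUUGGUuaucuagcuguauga
mmu-miR-9-3p: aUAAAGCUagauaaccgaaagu
mmu-miR-183-5p: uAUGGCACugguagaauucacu
mmu-miR-96-5p: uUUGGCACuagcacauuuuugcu
mmu-miR-182-5p: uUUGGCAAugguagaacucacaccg
mmu-miR-193b-3p: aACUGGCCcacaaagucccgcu
mmu-miR-365-3p: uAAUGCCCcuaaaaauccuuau
mmu-miR-15a-5p: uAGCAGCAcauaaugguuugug
mmu-miR-16-5p: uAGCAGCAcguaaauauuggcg

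Host genes of microRNAs stood among the peaks of highest score. The highest score of the group, 3226, belonged to a peak of 7864 bp at chr7:79495755-79503618 over the start of Mir9-3hg. This gene runs from 79500026 to 79534403 on the plus strand and carries Mir9-3, the source of miR-9, which promotes neural differentiation. A second peak of the group, 4891 bp wide with score 3100, covered its far end, and the next, of 4507 bp and score 3100, lay at the lncRNA gene Gm31740. Mir9-3 itself lay 1646 bp from the first peak and inside another Suz12 peak that was at no gene end of either kind. The nearest protein-coding end, of Polg, was 27844 bp from the first peak.

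The microRNA cluster of the sensory organs had a single wide peak. Mirc35hg, the host of miR-183, miR-96 and miR-182, which act in hair cells and photoreceptors, had its start under a peak of 9516 bp and score 3100 at chr6:30171097-30180612. The same peak covered both ends of BB283400 and the start of Gm31221. Mir183 lay 1360 bp from its edge, Mir96 1546 bp and Mir182 5105 bp, and the next Suz12 peak was 253157 bp away.

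A pair of lncRNA hosts of miR-124, the most abundant microRNA of neurons, was in the group. At Mir124a-1hg the peak, 6549 bp with score 3100 at chr14:64585335-64591883, covered Mir124a-1 and Mir3078 themselves. At Mir124-2hg a peak of 1883 bp and score 803 covered the start of another lncRNA gene, Gm30340, and reached the host only at the limit of 2500 bp. It was 8241 bp from Mir124a-2, which another peak, at no gene end, overlapped.

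Other lncRNA genes at these peaks also contained microRNAs. C130071C03Rik, which carries Mir9-2, had its start under a peak of 3165 bp and score 795, 16069 bp from the microRNA, and another peak lay 324 bp from Mir9-2. Gm32817 and Gm53058, which overlap and carry Mir193b and Mir365-1, had a peak of 1207 bp and score 341 at their start, 462 bp from Mir193b. D030055H07Rik, which carries Mir135a-1, had a peak of score 167 only. Dleu2 is the host of miR-15a and miR-16-1, which restrain cell division. It had a peak of 8000 bp and score 3100 just upstream of its start, 50430 bp from Mir15a. That peak covered the far end and an inner annotated start of Gm35196 and stopped just short of its outer start. Of the 32 lncRNA genes whose symbol marks a microRNA or small nucleolar RNA host, 5 (15.6%, 5.28 to 32.8) had any peak within 2.5 kb of an end. Of all 12697 lncRNA genes, 774 (6.1%) did, and the interval of the hosts includes that share.

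Antisense and overlapping lncRNAs of neural transcription factor genes followed. Nkx2-2os, on the strand opposite to Nkx2-2, a factor of ventral spinal cord and of oligodendrocytes, had a pair of peaks at chr2:147180554-147185149 (score 3112) and chr2:147185216-147192374 (score 3100). They lay 4069 and 3060 bp from an outer end of Nkx2-2 but inside that gene, and with another peak at its end they formed a domain of 15392 bp. In this text a domain is a run of peaks separated by at most 3 kb. Sox1ot, which spans Sox1, a marker of neural progenitors, had a peak of 9683 bp and score 3100 over its start at chr8:12382624-12392306. That peak lay 3213 bp from Sox1, whose own peaks completed a domain of 20018 bp.

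**Figure D1:**
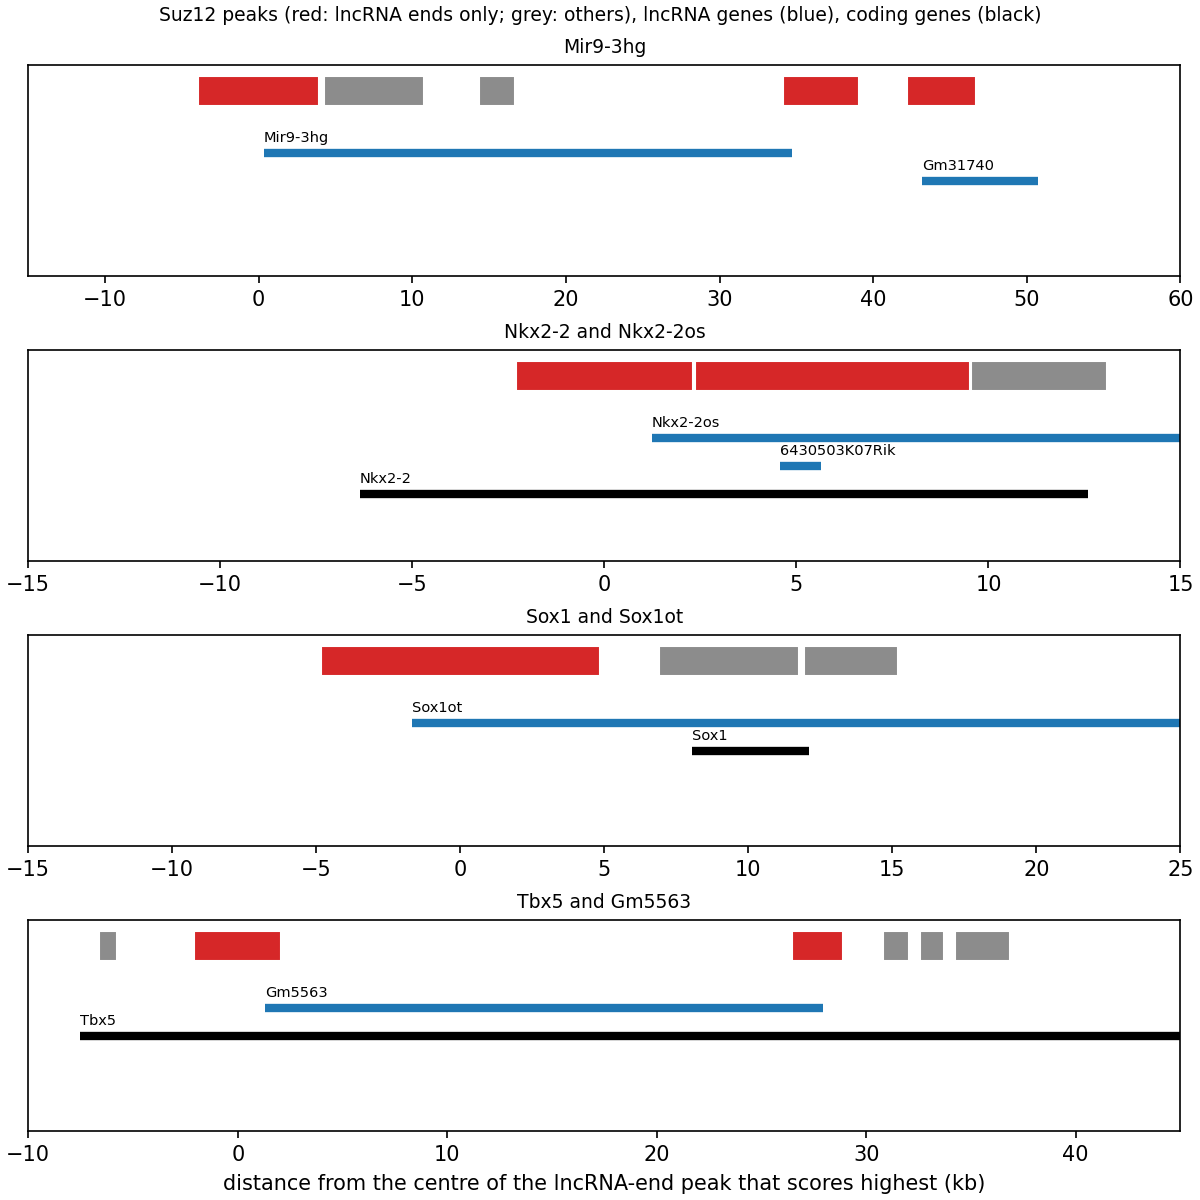
Suz12 peaks and genes at 4 loci, each drawn in kb from the centre of its top-scoring lncRNA-end peak. Boxes in the upper row are peaks, red where they lie at lncRNA ends only and grey otherwise; lines are gene spans cut at the panel edge. In the stretch drawn at Mir9-3hg the red peaks have no coding gene beside them. At Nkx2-2 and Sox1 they share a domain with a peak at a coding end, and at Tbx5 they lie inside the coding gene without such a shared domain.

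Further lncRNAs known from neural tissue had peaks of lower score. Miat, a nuclear RNA of neurons and retina, had a peak of 3090 bp and score 2734 over its start, 16738 bp from Cryba4. Pantr2, a neighbour of the neural factor gene Pou3f3, had a peak of score 928, and Paupar, which lies upstream of the eye and brain factor gene Pax6, one of score 784. Vax2os, known from the retina, had a peak of score 355, and Tunar, which acts in pluripotency and neural differentiation, one of score 268 at 113809 bp from the nearest protein-coding end. All of these peaks covered an end of the lncRNA gene.

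The 5 lists of known lncRNAs held 94 distinct genes in this annotation, and 34 (36.2%) had a peak at an end, 13 of them at a peak of the group. Of all lncRNA genes 6.1% had one, of those with an end near a protein-coding end 18.4%, and of those that are not predicted genes 9.44%. The lists were written with earlier results of these data known, so their shares are description only. In the forebrain, eye and neural list 15 of 22 genes had a peak (68.2%, 45.1 to 86.1). For 7 of the 15 a peak lay away from protein-coding ends, namely those above with Nkx2-2os and Sox1ot, and the other 8, among them Dlx6os1, Six3os1, Otx2os1 and Pax6os1, had peaks that also lay at a coding gene. Rmst and Sox2ot, both expressed in neural progenitors, had none within 2.5 kb of an end.

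Among the lncRNAs of mesoderm, endoderm and organs 8 of 15 had one (53.3%, 26.6 to 78.7), and 2 of these belonged to the group. Lncpint, an RNA induced by p53, had a peak of 3474 bp and score 1276 over its start, and the neighbouring peak of score 226 covered the start of 2210408F21Rik on the other strand. Evx1os had a narrow peak of 939 bp and score 213 beyond its end, 6872 bp from the homeobox gene Evx1. Fendrr, Gata6os, Hand2os1 and Wt1os had peaks that lay at coding ends as well.

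Of the Hox cluster lncRNAs 8 of 14 carried a peak (57.1%, 28.9 to 82.3), and Hotair and Gm53 were in the group. Hotair, an RNA of the Hoxc cluster that has been studied as a partner of PRC2, had a peak of score 1034 starting 35 bp beyond one end, 3409 bp from Hoxc12, and a peak of score 324 over the other, 5794 bp from Hoxc11. The first was part of a domain of 23166 bp and the second of one of 35624 bp. Gm53 in the Hoxb cluster had a peak of score 880.4, 18828 bp from Hoxb9. Hottip, Haglr, Mira and Hoxa11os had peaks at Hox genes too, and Halr1, Hotairm1, Hoxb3os and Hoxb5os had none.

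The shares of imprinted and of housekeeping lncRNAs with a peak were near the 6.1% of all lncRNA genes, which both of their wide intervals include. Of 12 imprinted lncRNAs 1 (8.33%, 0.211 to 38.5) had a peak, Igf2os, with a width of 3548 bp and score 1508 inside Igf2, 5086 bp from its end. H19, Kcnq1ot1, Airn, Meg3, Mirg and Peg13 had none. Of 32 lncRNAs of X inactivation and housekeeping 2 (6.25%, 0.766 to 20.8) had one, Dleu2 and Snhg18. Xist, Firre, Malat1, Neat1, Gas5 and Norad had none within 2.5 kb of an end.

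Protein-coding neighbours of the 209 peaks were often developmental regulators. For 61 peaks (29.2%, 23.1 to 35.9) the nearest protein-coding gene was on 1 of 4 lists of developmental regulators, which together hold 514 of 21631 protein-coding genes (2.38%). The same share was 30.3% (26.7 to 34.1) for peaks at ends of both kinds of gene, 16.4% (14.8 to 18.2) for peaks at protein-coding ends only and 27.2% (23.8 to 30.8) for peaks at neither. The group thus lay with the peaks at both kinds of end and at neither, whose intervals include its share, and above the peaks at coding ends only, whose interval does not reach it. The 4 lists, like those of lncRNAs, were written with earlier results of these data known.

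Homeobox genes outside the Hox clusters were the neighbours of 29 peaks (13.9%), at 23 different genes (interval of the share 9.49 to 19.3). Lhx2, a factor of eye and forebrain, contained the widest peak of the group, 12318 bp at chr2:38346065-38358382 with score 3100, over the start of Gm27197. Pou3f2, a factor of neurons, lay 4979 bp from a peak of 5859 bp and score 3100 beside Gm30731. Inside Pax5, a factor of B cells and midbrain, a peak of score 3100 lay at 5730488B01Rik. Nkx2-5, of the heart, lay 4120 bp from a peak of 2473 bp and score 3100 at LOC115488773. Onecut1, of liver and neurons, had a pair of peaks at Gm16551, of score 3061 and 1214, and Hlx, of gut and liver, 1 peak of 4992 bp and score 2771 at 4930488B22Rik. The peak of score 2228 at Gm42043 lay inside Zfhx3, 263335 bp from its nearer outer end, and neither outer end of Zfhx3 had a peak. The remaining neighbours of this kind ran from Tlx1, Pax2 and Six2 with scores of 1592, 1450.3 and 1541 to Irx2, with 154.

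Other developmental transcription factor genes were the neighbours of 23 peaks (11.0%, 7.11 to 16.1), at 18 genes. Tbx5, of heart and forelimb, held a peak at each end of Gm5563, of 4165 bp with score 3100 and of 2397 bp with score 861, the second 34001 bp from its end. Tbx18, of heart and somites, lay head to head with Gm36767, whose start was under a peak of score 3100, 6524 bp away. The next by score were Foxb1 of the diencephalon (2793, at Gm31530), Sp6 of tooth and skin (2066, at Gm11532), Lmo2 of blood (1896, at Gm38515), Neurog2 of neurons (1884, at Gm40147) and Ptf1a of pancreas and cerebellum (1792, at Gm13344 and Gm33940). Sp6 and Lmo2 had no peak within 2.5 kb of an outer end, but the peaks at Gm11532 and Gm38515 lay inside them. These were 3846 bp from an outer end of Sp6 and 10070 bp from one of Lmo2. Hox genes were the neighbours of 6 peaks (2.87%, 1.06 to 6.14) and signalling genes of 3 (1.44%, 0.297 to 4.14), at Ntn1, Wnt11 and Wnt6. Of all protein-coding genes 0.652% are on the list of homeobox genes outside Hox, 0.962% on that of other developmental factors, 0.180% on the Hox list and 0.582% on the signalling list. The interval of the signalling neighbours includes the share of their list, and those of the other 3 lists lie above it.

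Peaks next to a listed gene had a higher median width and score than the rest of the group. Their median width was 2368 bp (95% interval of the median 1884 to 2723, n = 61) against 1647 bp (1407 to 1898, n = 148), and their median score 900.5 (612 to 1407) against 418 (342 to 535). The intervals of the width overlap slightly, and those of the score do not. Score 3100 or more was reached by 9 of 61 (14.8%) and 8 of 148 (5.41%), and these share intervals overlap. The listed neighbours were nearer, at a median of 6794 bp (5448 to 10995) against 24266 bp (14196 to 29944). They also had a Suz12 peak of their own in 55 of 61 cases (90.2%, 79.8 to 96.3), against 34 of 148 (23.0%, 16.5 to 30.6), where 11.7% of all protein-coding genes had one. Listed genes had a peak often wherever they lay, 122 of 141 homeobox genes outside Hox (86.5%), 160 of 208 other transcription factors (76.9%), 25 of 39 Hox genes (64.1%) and 79 of 126 signalling genes (62.7%).

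**Figure D2:**
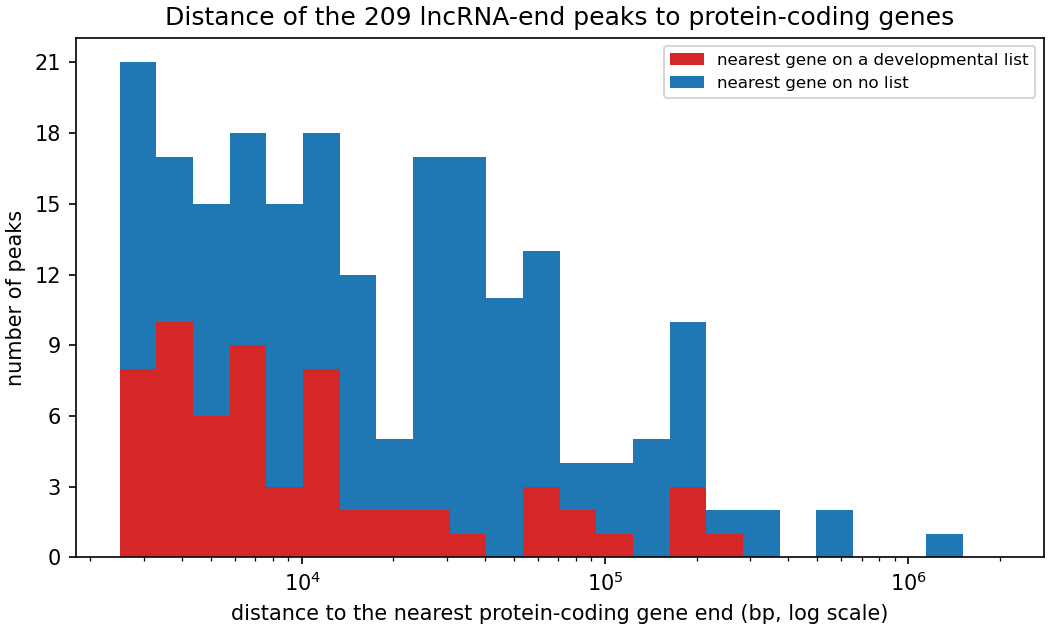
Distance from each of the 209 peaks to the nearest outer end of a protein-coding gene, in bp on a log axis, with the number of peaks stacked by whether that gene is on a developmental list (red, 61) or not (blue, 148). The listed neighbours have a median distance of 6794 bp against 24266 bp for the others, and the distribution starts at 2.5 kb because of the rule.

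Some of the highest-scoring peaks of the group had no developmental regulator as nearest gene. Besides those at Mir9-3hg, Gm31740, Mirc35hg, Mir124a-1hg and Dleu2, these included the peak of 7754 bp and score 3100 over Gm14114 and Gm34978, 15121 bp from Kiz, and the peak of 5062 bp and score 3100 over the start of 9530059O14Rik, 173863 bp from Topaz1. The peak farthest from any protein-coding end, 1392277 bp from Tenm3, had score 721 and lay inside 1700019L22Rik, 401 bp from its start. The next 4 in distance, at Gm32810, Gm42303, Gm44689 and Gm31034, were 320548 to 551273 bp from one and had scores of 169 to 261. The distance from the group to a protein-coding end had a median of 13318 bp (quartiles 5727 and 41915), and 85 peaks (40.7%) lay within 10 kb and 183 (87.6%) within 100 kb. Score hardly varied with that distance (Spearman's rho -0.12, n = 209).

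As a whole the group was like the peaks at protein-coding ends only in size. The 5 narrowest peaks had 734 bp (Gm31034) to 889 bp (Gm32810) and the widest 12318 bp, with a median of 1863 bp (1677 to 1983), against 1839 bp (1793 to 1886) for the 1906 peaks at protein-coding ends only. The median score was 535 (427 to 661) against 576 (543 to 621). Peaks at ends of both kinds were wider, with a median of 2257 bp (2131 to 2400), and peaks at neither were narrower, with 1596 bp (1539 to 1675). Score 3100 or more was reached by 17 peaks of the group (8.13%, 4.81 to 12.7), by 21.9% at both kinds of end, 9.08% at coding ends only and 5.05% at neither. The value 3100 is shared by 325 peaks of the list, so order at the top carries little information. The 5 lowest scores, from 154 at D730050B12Rik to 165 at Gm31755, were close to the lowest of the list. Score and width rose together across the group (Spearman's rho 0.88, n = 209).

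**Figure D3:**
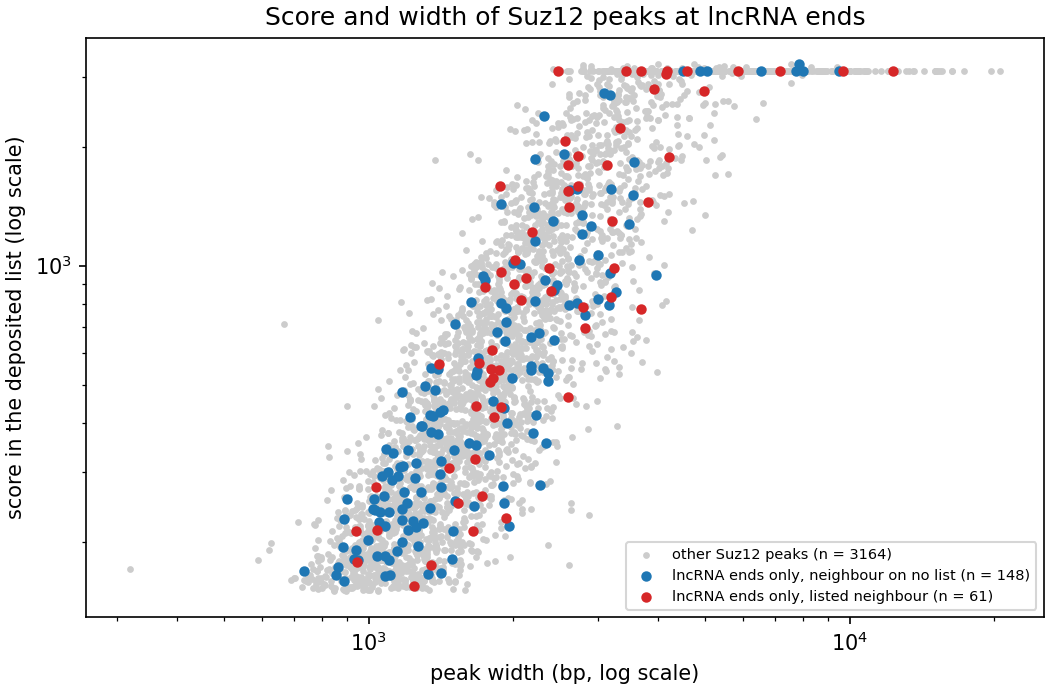
Score in the deposited list against width in bp for all 3373 peaks, both on log axes, with the 209 peaks at lncRNA ends only in colour (red where the nearest protein-coding gene is on a developmental list). The coloured points follow the same band as the grey ones, 9 of 61 red points and 8 of 148 blue points reach 3100, and the flat upper edge is the score of 3100 shared by many peaks.

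On the lncRNA gene itself the peaks lay more often at the start than at the far end. A peak covered an outer end of a lncRNA gene in 117 of 209 cases (56.0%, 49.0 to 62.8), and 49 (23.4%) lay wholly beyond their genes. Strand was recorded for a lncRNA gene at 162 of the peaks. Of these, 83 (51.2%, 43.3 to 59.2) lay within 2.5 kb of a start and of no far end, 40 (24.7%) were near both, and 39 (24.1%, 17.7 to 31.4) were near a far end only. Peaks that covered an end had a median width of 2195 bp (1908 to 2464) and a median score of 712 (535 to 861), against 1483 bp (1363 to 1716) and 397 (308 to 509.6) for the 92 that covered none.

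Of the 209 peaks 99 (47.4%, 40.4 to 54.4) lay wholly inside a protein-coding gene, against 413 of 654 peaks (63.1%, 59.3 to 66.9) at neither kind of end. Where a lncRNA start lay at the peak and both strands were recorded (105 peaks), the lncRNA overlapped the nearest coding gene on the opposite strand at 47 (44.8%), ran in the same direction without overlap at 28 (26.7%) and lay head to head with it at 10 (9.52%). Whether a peak lay in an exon, an intron or an untranslated part was not analysed here. The rule knows outer gene ends only. Starts were recorded for 17274 of 21631 protein-coding genes. Of the 201 peaks away from chromosome 18, 29 (14.4%, 9.88 to 20.1) held a recorded inner start of a protein-coding gene. These included peaks at Lhx2 (score 3100), Nkx2-2 (3100), Igf2 (1508) and Gnas (1344), which therefore also lay on a coding start.

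Neighbouring peaks were common. Another peak lay within 3 kb of 57 of the 209 (27.3%, 21.4 to 33.8), against 15.1% (13.5 to 16.7) of peaks at protein-coding ends only and 25.8% (22.5 to 29.4) of peaks at neither. Only 24 (11.5%) were joined in this way to a peak at a coding end, and 152 (72.7%) stood alone. The joined 24 had a median width of 2711 bp (1671 to 4150) and a median score of 1124 (443 to 2793), and the lone ones 1805 bp (1513 to 1961) and 509 (394 to 644). The 209 peaks fell in 192 domains. At Unc45bos, and at Gm52046 with C130071C03Rik, 3 peaks of the group fell in 1 domain.

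At the level of genes, 213 lncRNA genes lay at the 209 peaks, 193 of them at 1 peak, 18 at 2 and 2 at 3. By symbol 156 (73.2%) were predicted genes named Gm or LOC with a number, 33 (15.5%) were RIKEN clones, and the remaining names included 7 antisense or overlapping genes and 4 small RNA hosts. Among all 9742 lncRNA genes with both ends away from protein-coding ends, 231 (2.37%, 2.08 to 2.69) had a peak, against 543 of 2955 (18.4%, 17.0 to 19.8) with an end near one. For protein-coding genes the share was 11.7%. The gene bodies were of usual length, with a median of 7163 bp for the 213 and 8834 bp for lncRNA genes without a peak away from coding ends. The zone within 2.5 kb of lncRNA ends and away from coding ends makes up 3.73% of the stretch of chromosomes searched, and 227 peak midpoints (6.73%, 5.91 to 7.63) fell in it.

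CpG content was higher at lncRNA starts with Suz12 than at those without. The measure is the number of CpG dinucleotides in the 300-base window divided by the number that its C and G content predicts for random order. It is 1 where these numbers are equal. Its median was 0.604 (quartiles 0.459 and 0.777) for the 80 lncRNA genes whose start lay in a peak of the group. It was 0.213 (0.115 and 0.343) for 7107 lncRNA genes away from coding ends without a peak, and 0.244 (0.155 and 0.402) for 79 lncRNA genes of the group whose own start was in no peak. The median number of CpG per window was 13.5, 3 and 5 in that order. For protein-coding genes the medians were 0.731 with the start in a peak and 0.557 without a peak.

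Windows with a ratio of at least 0.6 and a GC content of at least 50% are called CpG dense here. Of the starts in a peak of the group 36 of 80 (45%, 33.8 to 56.5) were dense, against 264 of 7107 (3.71%, 3.29 to 4.18) without a peak. Among the 201 peaks away from chromosome 18, 12 held both a lncRNA start and an inner protein-coding start. The dense share was not computed without them. Starts in other peaks were dense in 160 of 264 lncRNA genes (60.6%, 54.4 to 66.5) and in 968 of 1395 protein-coding genes (69.4%, 66.9 to 71.8), and the interval of the group lies below that of the coding genes. Mir9-3hg (0.840), Mirc35hg (0.946) and 9530059O14Rik (0.890) had dense starts, and Gm36767 (1.06), Miat (0.807) and Nkx2-2os (0.644) as well. Sox1ot, with 1.08 and a GC content of 49.7%, missed the limit by its GC content alone. Gm35196 (0) and Gm14114 (0.138) had almost no CpG in the window. Both starts lay near the edge of their peaks, and part of each window lies outside the peak.

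Read the other way, a dense start away from outer coding ends had Suz12 far more often than another start there. Such a start can still lie inside a coding gene, as at Nkx2-2os, or share a peak with an inner coding start. Among lncRNA genes with both ends away from coding ends, 42 of 314 dense starts (13.4%, 9.81 to 17.6) and 55 of 6965 other starts (0.790%, 0.595 to 1.03) lay in a peak. Among protein-coding genes the shares were 968 of 8003 (12.1%, 11.4 to 12.8) and 427 of 9271 (4.61%, 4.19 to 5.05). The dense lncRNA and the dense coding share have overlapping intervals, and the difference between them was not tested. Among the other starts the lncRNA share lay below the coding one, and their intervals do not overlap.

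**Figure D4:**
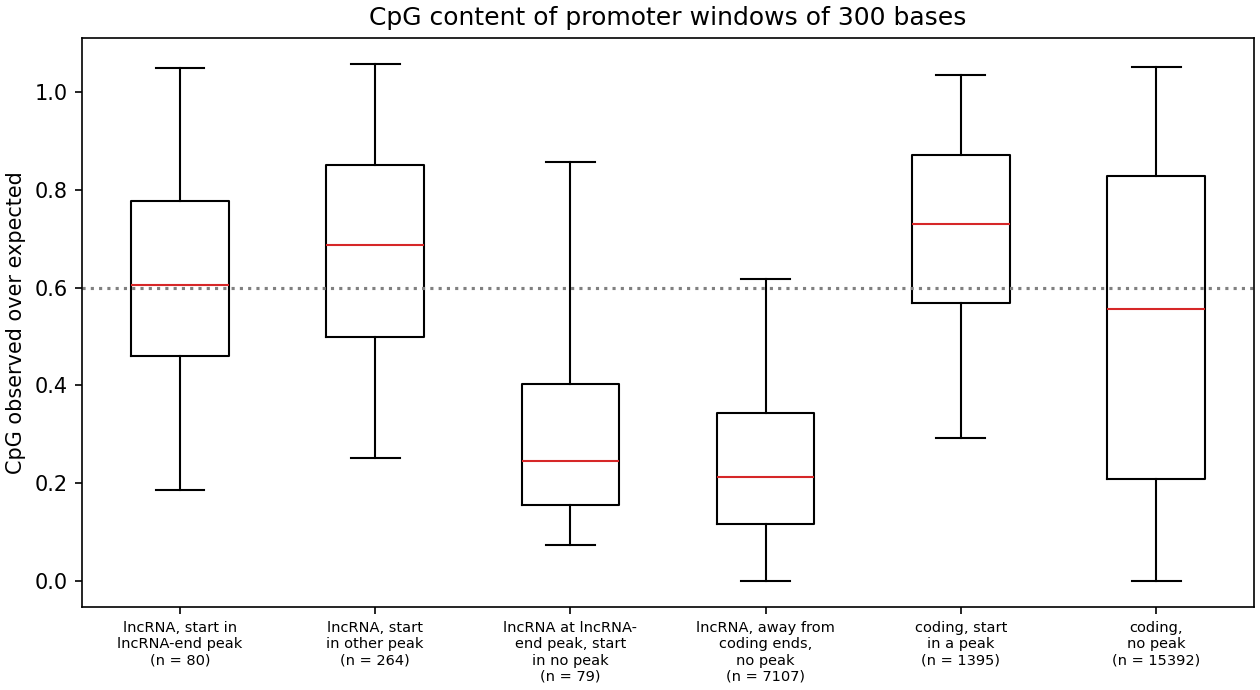
CpG observed over expected in promoter windows of 300 bases for 6 groups of genes. Boxes give the quartiles, red lines the medians, whiskers the 5th and 95th percentiles, and the dotted line the limit of 0.6. lncRNA starts inside lncRNA-end peaks have a median of 0.604, against 0.213 for lncRNA genes away from coding ends without a peak.

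Of the 201 peaks with start data 76 (37.8%, 31.1 to 44.9) held an annotated lncRNA start and 108 (53.7%) held no start of either kind. Peaks with and without a recorded start had close median scores, 535 and 545, and median widths of 2125 and 1763 bp. Those without one include peaks at lncRNA genes of unrecorded start, such as Mir124a-1hg and Gm31740, so these values do not compare peaks with and without a start. Among the 93 that held a start, 56 held a dense one, with a median score of 678 and width of 2227 bp, and the other 37 had 527 and 1961 bp. Without the genome sequence the CpG content of a whole peak was not analysed here.

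At the limits of the rule, peaks just inside and just outside had scores in the same range. Just inside the limit from the lncRNA end were peaks at AA388235 (2362 bp, score 811), Unc45bos (2371 bp, 813) and 4930500L23Rik (2420 bp, 261), and just outside it peaks at Gm41569 (2504 bp, 303), Gm36363 (2559 bp, 962) and 3110006O06Rik (2735 bp, 310.4). On the protein-coding side the peaks that just met the rule lay within Zfp648, 2528 bp from its outer end (score 1298), within Ntrk3, 2575 bp from its outer end (1015), and within Pth1r, 2601 bp from its outer end (958). Those that just missed it lay 2432 bp from an outer end of Camkk1 (436), 2412 bp from Fam78a (2662) and 2383 bp from Adcyap1 (545). Chromosomes 4, 5 and 11 held 19 of the 209 peaks each. The X chromosome held 2, at Gm15482 (score 190.1) and Gm46687 (score 166).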

How the data were processed

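Suz12 was mapped by chromatin immunoprecipitation sequencing. Per the submitters' processing notes, reads went to the mouse build GRCm38 (mm10), with Bowtie and MACS among the tools. Their versions and settings, any control and any pooling are not given in the sources used. The deposited score per peak has no stated scale and was used only to describe, rank and filter peaks within the list. Depth is unknown, since no reads are listed, and signal under the authors' threshold does not appear.

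Peak starts were moved to 1-based coordinates. Distances run from the nearest peak edge to the outer gene ends of RefSeq GRCm38.p6 (12697 lncRNA and 21631 protein-coding genes on 20 chromosomes). RefSeq promoter windows, 250 bases before to 50 after a start, were matched for 9520 lncRNA genes (75.0%); for each gene the window nearest its outer start was used, and strand came from the same table. It was matched for none of the 8 peaks of the group on chromosome 18. Python 3.11.15, numpy 2.4.6, pandas 2.3.3, scipy 1.17.1 and matplotlib 3.10.9 were used. The classing was tested on simulated data, where 400 of 400 peaks were classed as placed. No simulated peak lay near both kinds of end or inside a gene, so those cases were not tested. Of 154 lncRNA symbols written for the lists 94 distinct lncRNA genes were found, 5 by an older name.

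The members and lists were chosen with earlier results of these data known. Named are the peaks highest or lowest in score or width, farthest from coding ends, nearest to the limits, at listed lncRNA or host genes and with listed neighbours. A few others were named after their values were seen, among them the 2 on the X chromosome, those with inner coding starts, several listed neighbours of lower score, lncRNA genes that contain a microRNA and the signalling neighbours. Each list's members without a peak were named in part.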

Additional observations from a re-analysis of the deposited data

How the results depend on the processing

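Among 57 values from other settings, 24 were inside the reported interval (for counts, within 1.5 times) and 33 moved outside it. A change of direction was not looked for. Leaving out peaks of low score lowers counts and raises medians by construction. At or above the median score there were 94 peaks, 3.74% of lncRNA genes, a median width of 2725 bp and score of 1267, 69.1% covering an end and 41.5% with a listed neighbour. At double the lowest score or more, the genes were 4.86%, the width 2223 bp and the score 824. When the peak had to cover the lncRNA end there were 117 peaks (100% by construction), 3.99% of genes, 2195 bp and 712. Without predicted genes there were 59 peaks, 9.44% of genes, 2180 bp, 795 and 66.1% covering. Within 1 kb, 5.23% of genes had a peak and 68.6% of peaks covered an end; within 5 kb these were 7.12% and 48.0%, and by midpoint 5.36% and 63.9%. More than 10 kb from coding ends left 124 peaks, 20.2% with a listed neighbour. The share of dense starts was 30.5% for all lncRNA genes at the peaks and 22.5% with the stricter limits of 0.75 and 55%.

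For lncRNA starts away from coding ends, alternatives chosen after seeing the data gave 8.28% of dense and 0.488% of other starts in a peak at or above the median score, 17.4% and 1.06% with the stricter limits, and 15.6% and 1.27% without predicted genes. The dense share stayed the larger in each. The share of lncRNA genes with a peak does not depend on the coding distance and was not rerun for it. No paired analysis was possible because 1 library has a peak list.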
